A study of Mus musculus with 4 samples.

Results

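Cluster 0 is a group of 6561 single cells among 43782 in which chromatin accessibility was profiled. It was defined by the authors from the peaks of open chromatin in all 4 libraries together, and its members were chosen by that cluster number in the deposited cell table. It held 6367 cells of the eribulin multiome library, 129 of the eribulin scATAC library, 41 of the untreated multiome library and 24 of the untreated scATAC library. The eribulin multiome library thus supplied 97.0% (96.6 to 97.4) of the cluster, and cluster 0 held 78.5% (77.6 to 79.4) of that library. The name given to it, the dominant eribulin state of the multiome run, matched this make-up for the multiome protocol only, since the cluster held 0.771% (0.644 to 0.916) of the eribulin scATAC cells. No value of any named gene or peak was used here. Neither the cluster nor the labelled tumor origin was therefore checked against marker genes, and the cluster is called by its number.

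All cells were of PB3, a mouse mammary tumor cell line. The 2 eribulin groups had been exposed to 500 nM of the drug for 72 h and left for 48 h to recover, with 4 such rounds in all, and the 2 untreated groups received no drug. Each treatment was profiled by single-cell ATAC-seq (scATAC, run 1) and by the ATAC component of the multiome assay, which reads chromatin and RNA from the same nuclei (run 3), with 1 library per group. No test between libraries was therefore made, and cells are not replicates. Every interval of a share of cells or of a median is an exact 95% binomial interval (Clopper-Pearson for shares, order statistics for medians). It covers counting error only. Total cut sites in peaks were 49446970 to 127710435 per library. The multiome libraries shared 123 cell barcodes, the scATAC libraries 215, and the untreated libraries 1. Of the 123 shared barcodes 90 lay on cluster 0 cells of the eribulin multiome library, and without all cells that share a barcode cluster 0 held 78.6% of that library.

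Eribulin binds the growing ends of microtubules and stops their extension, which arrests dividing cells in mitosis. In ATAC-seq the Tn5 transposase cuts DNA that is free of nucleosomes, so that the cut sites of a cell mark its open promoters and enhancers. Cells with a like pattern of cut sites fall into the same cluster. Lentiviral barcodes are short DNA tags that integrate into the genome and pass to all descendants of an infected cell, so that cells with the same tag belong to 1 lineage.

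The lineages on which the description of cluster 0 turns carry barcodes of 48 bases, read from the deposited list and named by the numbers of a short part of 14 bases and a long part of 30 bases. They are shown because the share of a lineage in cluster 0 is followed below under these names. Capitals mark the linker that joins both parts.
76-49517: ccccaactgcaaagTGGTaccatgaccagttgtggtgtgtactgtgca
6-93034: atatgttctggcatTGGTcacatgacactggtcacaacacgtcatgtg
95-33662: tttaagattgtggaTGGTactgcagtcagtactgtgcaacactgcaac
55-23349: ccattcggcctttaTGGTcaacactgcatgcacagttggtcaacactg
39-41529: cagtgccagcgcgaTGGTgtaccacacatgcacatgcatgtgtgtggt
55-98358: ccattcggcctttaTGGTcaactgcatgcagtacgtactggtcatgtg
The fourth and the last share the short part 55, as do 55-99383 and 55-37135. These 4 were among the 10 barcodes with at least 10 called cells in the eribulin multiome library. Their long parts differed from one another at 16 to 22 of 30 bases, so that they are separate entries of the list.

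The first comparison asked how the cluster was distributed over the libraries at equal rank of depth. In the eribulin multiome library cluster 0 was the main state at every depth. It held 82.5% (80.8 to 84.1) of the shallowest quartile of cells, which had 1002 to 2383 cut sites. The next quartiles had 80.2% and 76.5% in cluster 0, and the deepest, from 7441 cut sites upward, had 74.7% (72.7 to 76.5). The share therefore fell with depth, and the intervals of the shallowest and the deepest quartile did not overlap.

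In the other libraries the few cluster 0 cells were concentrated at low depth. Of the 41 untreated multiome cells, 23 (56.1%, 39.7 to 71.5) came from the shallowest quartile of their library. Of the 24 untreated scATAC cells, 13 (54.2%, 32.8 to 74.4) did so. The 129 eribulin scATAC cells split between both ends of the depth range, with 53 (41.1%, 32.5 to 50.1) in the shallowest and 45 (34.9%, 26.7 to 43.8) in the deepest quartile.

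**Figure D1:**
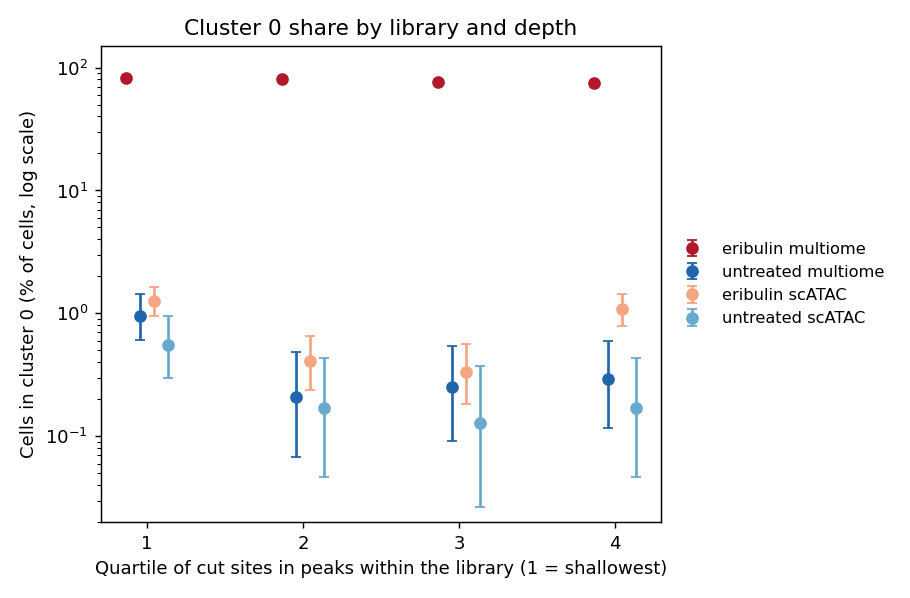
Share of each library's cells that lay in cluster 0 (vertical axis, percent on a log scale) by quartile of cut sites within the library (horizontal axis, 1 is the shallowest). Points are shares and bars are exact 95% binomial intervals; the eribulin multiome library ran from 82.5% to 74.7%, and the other libraries lay at or below 1.27% in every quartile.

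The median depth of cluster 0 cells was below that of the other cells in all 4 libraries, but the intervals overlapped in both scATAC libraries. In the eribulin multiome library the median was 4056 cut sites (quartiles 2324 and 7217) in cluster 0 and 4781 (2718 and 8406.5) in the other cells, a change of -15.2%. Cluster 0 medians ranged down to 1793 in the untreated multiome library, where the other cells had 5222. In the untreated scATAC library the medians were 3924.5 (interval 1500 to 8559) and 7443 (7328 to 7575). In the eribulin scATAC library they were 5012 (interval 3570 to 7537) and 6052 (5970 to 6146). The means there gave the opposite order, with cluster 0 higher by 2213 cut sites, and its cells lay mainly at both ends of the depth range. Among the eribulin multiome clusters with at least 50 cells, cluster 10 was the only one with a lower median than cluster 0, at 3848, and cluster 12 had the highest, at 5868.

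Gene activity, a count of accessibility over each gene's body and promoter, was summed per cell and moved with depth. The labels do not say whether it counts cut sites or fragments. Its median total was 3975 in cluster 0 and 4748 in the other eribulin multiome cells, and the median number of genes with activity was 3091 and 3564. At equal rank of depth the gap in genes became small but kept its sign. In the shallowest quartile cluster 0 cells had a median of 1429 genes against 1511, and in the second they had 2533 against 2554. In the third and the deepest quartile they had 3931.5 against 4023 and 6529 against 6737.

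Activity per cut site relates the activity assigned to genes to the cut sites in peaks of the same cell. It is not a fraction, since the counts may differ in unit and cover different regions. Its median was 0.968 (interval 0.966 to 0.969) in cluster 0 and 0.984 (0.979 to 0.988) in the other eribulin multiome cells, and it was lower in cluster 0 in all 4 depth quartiles. By cluster it was 0.961 in cluster 12, 0.965 in cluster 13, 0.994 in cluster 10, 0.999 in cluster 11 and 1.01 in cluster 15. Cluster 0 thus lay with clusters 12 and 13 at the lower end. In the untreated multiome library, cluster 0 cells had 0.959 (0.935 to 0.999) against 0.976, and in scATAC eribulin cells 0.924 (0.906 to 0.937) against 0.922. Untreated scATAC cells had 0.948 (0.927 to 1.01) in cluster 0 and 0.973 outside it. In these 3 libraries the interval covered the value of the other cells. Gene activity was counted from the same fragments as the peaks, so these values describe the cluster and do not test it.

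The nucleosome signal compares the number of fragments that span a nucleosome with the number too short to do so, and it was almost the same in cluster 0 as in the rest of the eribulin multiome library. Its median was 0.669 (quartiles 0.608 and 0.739) in cluster 0 and 0.666 (0.601 and 0.738) in the other cells, and the intervals of both medians overlapped. The medians of the other clusters with at least 50 cells ran from 0.652 in cluster 15 to 0.678 in cluster 10. Similar values were thus found across all the described clusters of this library. When the cluster 0 cells were divided by depth into 5 groups of near-equal size, the medians lay between 0.666 and 0.673.

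Untreated cells of cluster 0 had a higher nucleosome signal than the eribulin cells of the same cluster. Untreated multiome cells in cluster 0 had a median of 0.812 (interval 0.769 to 0.971), between the 0.669 of the eribulin cells of the same cluster and the 0.907 of the other untreated cells. The interval covered 0.907, so a place below the other untreated cells was not resolved. Of these 41 cells, 15 (36.6%, 22.1 to 53.1) lay below 0.788, the midpoint of the medians of both multiome libraries. Among the eribulin cells of cluster 0, 85.7% (84.8 to 86.6) did so, and among the other untreated cells 18.0% (17.2 to 18.8). Among untreated cells below 3000 cut sites the shares were closer. They were 38.1% (18.1 to 61.6; 8 of 21) in cluster 0 and 32.9% (30.7 to 35.2) outside it. Conversely, 127 eribulin multiome cells in the 8 mainly untreated clusters had a median of 0.654 (0.636 to 0.676), as low as in cluster 0.

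The difference among the untreated cells varied with depth without a steady trend. Of the 41 untreated multiome cells in cluster 0, 21 had fewer than 3000 cut sites (51.2%, against 17.9% of the library). These 21 had a median nucleosome signal of 0.800 (0.757 to 1.07). The other untreated multiome cells below 3000 cut sites had 0.844, and the interval of the cluster 0 median covered that value. Eribulin cells of cluster 0 below the same limit had 0.667, so that the gap between the treatments in cluster 0 was present at low depth as well. From the shallowest to the deepest quartile, the 23, 5, 6 and 7 untreated multiome cells of cluster 0 had medians of 0.843, 0.748, 0.857 and 0.819. The other untreated multiome cells had 0.856, 0.918, 0.935 and 0.925. In untreated scATAC the difference was -0.062 below 3000 cut sites and -0.055 over all cells. The part of depth was not tested.

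In scATAC the same order was found with fewer cells. Cluster 0 cells of the eribulin library had a median nucleosome signal of 0.785 (0.758 to 0.819), above the 0.756 of the other cells of that library. The 24 untreated cells had 1.01 (0.930 to 1.07) and the other untreated cells 1.07. The 100 eribulin scATAC cells in mainly untreated clusters had 0.777. In both protocols the median of the untreated cells in cluster 0 lay nearer to their own library than to the eribulin cells beside which they had been clustered. Its interval covered the median of the other untreated cells in both protocols. In multiome the interval also reached below 0.788, the midpoint of the library medians, so the nearness was not resolved there.

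**Figure D2:**
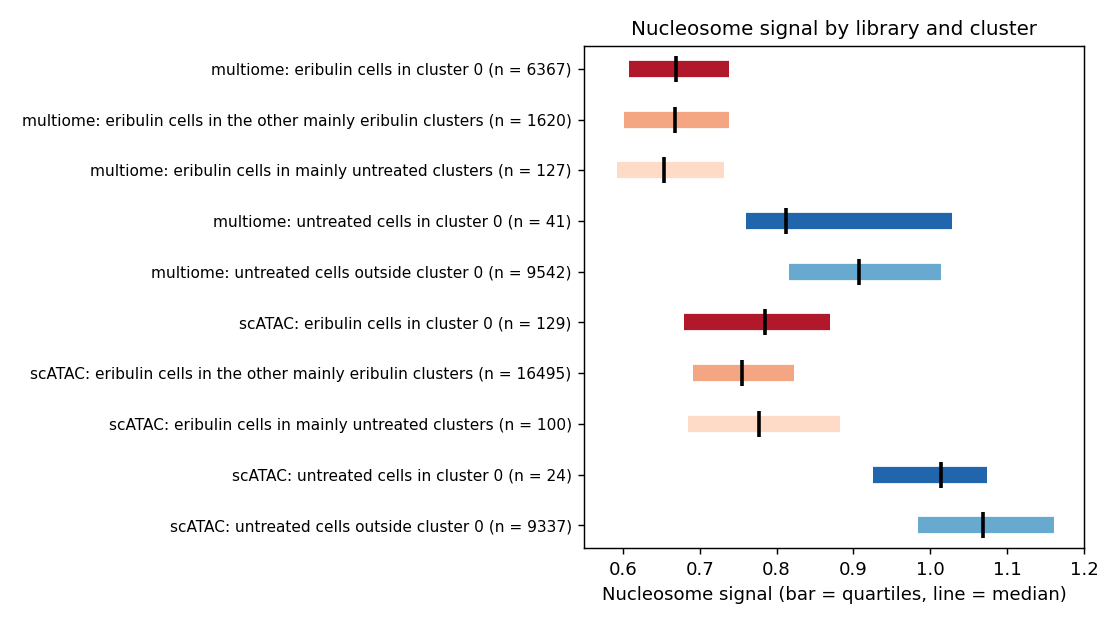
Nucleosome signal per cell (horizontal axis, a ratio without unit) for eribulin and untreated cells inside and outside cluster 0, by protocol. Bars span the quartiles and black lines are medians over cells; eribulin multiome cells have medians of 0.654 to 0.669 in all 3 kinds of cluster, and untreated cells of cluster 0 have medians of 0.812 and 1.01.

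Transcription start site enrichment, a measure of signal quality, had overlapping intervals in cluster 0 and the other cells in 3 of the 4 libraries when cells of all depths were taken. Its median was 5.07 (5.04 to 5.09) in cluster 0 and 5.05 (5.01 to 5.09) in the other eribulin multiome cells, and 5.0 (4.67 to 5.31) against 5.01 in the untreated multiome library. Untreated scATAC cells had 5.09 (4.79 to 5.30) in cluster 0 and 4.99 outside it. The eribulin scATAC cells of cluster 0 had the lowest value, 4.85 (4.67 to 5.02), against 5.04 (5.03 to 5.06). Among cells between the lower and the upper quartile of their library's depth the differences were other ones. Cluster 0 minus other cells was then 0.0417 in eribulin scATAC (-0.189 over all cells), -0.457 in untreated multiome (-0.017 over all cells) and -0.0247 in eribulin multiome (0.014 over all cells).

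The next question was how compact the cluster was on the deposited UMAP, a map drawn, like the clusters, from the peak data. Positions on it are therefore a description and no independent evidence. The median position of the eribulin multiome cells of cluster 0 was -4.06 on the first and 3.02 on the second axis, and 1761 of the 6367 cells lay within 1 unit of it and 3322 between 1 and 2 units. The median distance was 1.4 units, against 0.903 for cluster 12 and 0.580 for cluster 15, 1.05 for cluster 11, 1.38 for cluster 10 and 1.63 for cluster 13.

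Cells far from the centre were deep. The 493 cells more than 3 units away had a median of 12511 cut sites (quartiles 6747 and 21565), against 3455 (2332 and 5330) within 1 unit. Their nucleosome signal of 0.673 and start site enrichment of 5.03 were close to the 0.668 and 5.08 of the central cells. Of the 37 cluster 0 cells called doublet or multiplet from their lineage barcodes, 8 were among these 493 and 3 among the 1761 central ones, with medians of 12526 cut sites for the doublets and 17483 for the 4 multiplets. The part of depth and of doublets in this scatter was not tested.

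Within the cluster, the second axis moved with depth. From the shallowest to the deepest of the 5 depth groups its median was 1.90, 2.58, 3.19, 3.49 and 3.83, while the median on the first axis stayed between -4.11 and -3.93. Spearman's rho between cut sites and the second axis was 0.59 over 6367 cells of this 1 library, and that with the first axis was 0.09. Depth moved with the map in the other described clusters of this library too. The rho with the second axis was 0.59 in cluster 15, 0.43 in cluster 13, 0.40 in cluster 11, 0.32 in cluster 12 and 0.11 in cluster 10. That with the first axis was -0.64 in cluster 12, -0.54 in cluster 10 and 0.25 to 0.37 in clusters 11, 13 and 15. The rho of depth with nucleosome signal and with start site enrichment was 0.00 for each in cluster 0.

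**Figure D3:**
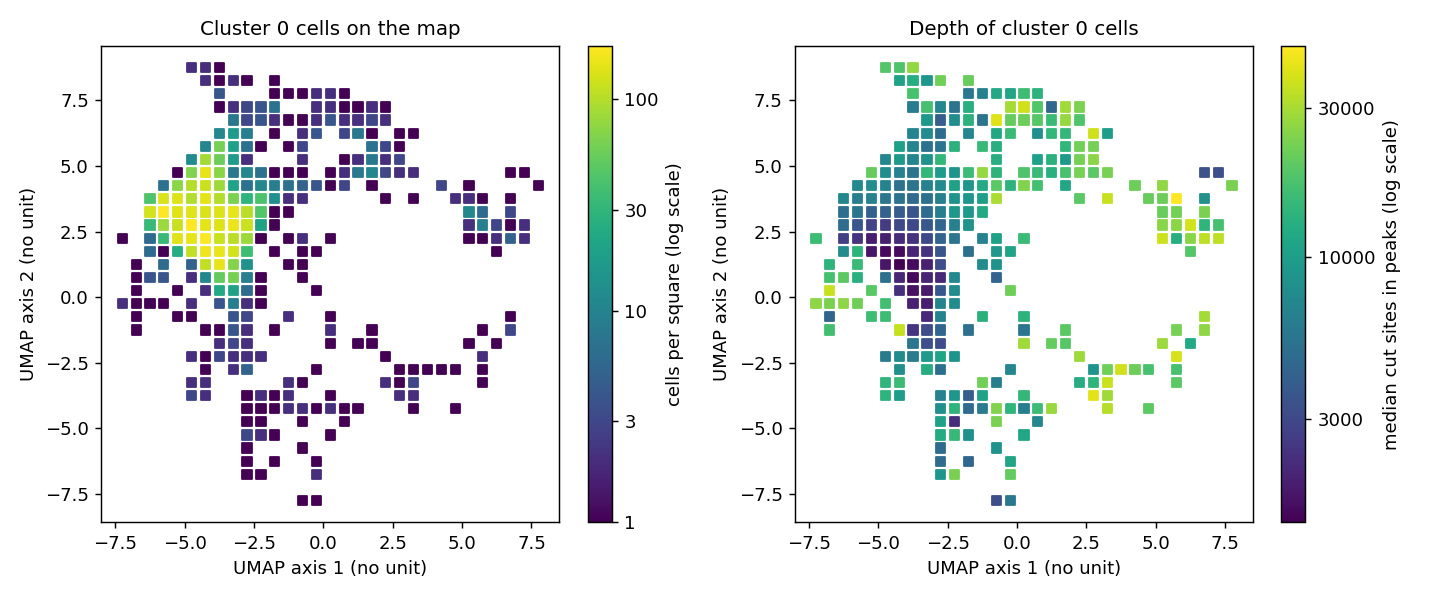
Eribulin multiome cells of cluster 0 on the UMAP, in squares of 0.5 units (both axes without unit). Colour gives cells per square (left) and median cut sites per cell (right), both on a log scale; the dense part lies around -4.06 and 3.02, shallow cells lie at its lower edge, and the sparse squares far from it hold deep cells.

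Neighbours on the map show what cluster 0 bordered. Of the 30 nearest neighbours of its eribulin multiome cells, 69.8% were cluster 0 cells, 6.11% belonged to cluster 7, 4.83% to cluster 11, 4.69% to cluster 1 and 2.75% to cluster 5. By library, 75% of the neighbours came from eribulin multiome, 18.9% from eribulin scATAC, 3.69% from untreated multiome and 2.46% from untreated scATAC. When only eribulin scATAC cells were considered, the 30 nearest to each of these cells belonged to cluster 1 in 21.0% of cases, to cluster 7 in 19.8%, to cluster 11 in 14.1%, to cluster 10 in 12.9% and to cluster 5 in 12.4%. Cluster 12 had 9.31% and cluster 0 itself 5.69%. In that library as a whole clusters 7, 10, 11 and 12 had 15.7%, 9.17%, 8.11% and 5.56% of the cells, clusters 1 and 5 had 35.8% and 17.2%, and cluster 0 had 0.771%. The nearest scATAC cells thus came from several eribulin clusters, and cluster 0 had a larger part among them than in the library.

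Cluster 0 cells of the other libraries were mostly not embedded in the cluster. Cluster 0 accounted for 35.9% of the neighbours of the 129 eribulin scATAC cells, 28.9% for the 41 untreated multiome cells and 24.9% for the 24 untreated scATAC cells. At least 50.0% of the neighbours were cluster 0 cells for 44, 13 and 5 cells of these groups, against 5038 of 6367 in the eribulin multiome library. Position moved with depth here too. The 23 shallowest untreated multiome cells had a median position of -3.84 and 1.12, with 40.6% of neighbours in cluster 0 and 36.8% in mainly untreated clusters. The 7 deepest had 1.13 and -4.10, with 5.71% and 70.5%. The 45 deepest eribulin scATAC cells had a median of 4.18 on the first axis, with 24.7% of neighbours in cluster 0, against -3.65 and 47.5% for the 53 shallowest.

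Lineage barcodes were then compared between cluster 0 and the rest of the eribulin multiome library, since barcode calls were not used to draw the clusters. A single barcode was called in 876 cluster 0 cells (13.8%, 12.9 to 14.6) and in 515 other cells (29.5%, 27.3 to 31.7). Cluster 0 had the lowest share of called cells among the clusters with at least 50 cells. The share was 17.8% (14.1 to 22.1) in cluster 11, whose interval overlapped that of cluster 0. It was 20.9% in cluster 15, 24.4% in cluster 13, 30.0% in cluster 10 and 43.7% in cluster 12. As a result, cluster 0 held 81.9% (81.0 to 82.8) of the 6622 cells called negative but 63.0% (60.4 to 65.5) of the 1391 called cells.

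Depth moved with barcode calls, but the difference was present at every depth. Called cluster 0 cells had a median of 5870.5 cut sites and negative ones 3802. In the shallowest quartile 8.96% (7.64 to 10.4) of the cluster 0 cells and 24.8% (20.4 to 29.6) of the other cells were called. In the second quartile the shares were 10.8% and 21.7%, in the third 12.8% and 27.5%, and in the deepest 23.3% (21.2 to 25.5) and 40.7% (36.4 to 45.0). The intervals did not overlap in any of the 4 quartiles. Doublet or multiplet calls were also fewer in cluster 0, with 0.581% (0.409 to 0.800) against 1.43% (0.928 to 2.11) of all cells. Among cells with 1 or more barcodes called, however, they were 37 of 913 (4.05%, 2.87 to 5.54) and 25 of 540 (4.63%, 3.02 to 6.76), with overlapping intervals. In the untreated multiome library, 21 of the 41 cluster 0 cells were called (51.2%, 35.1 to 67.1), close to the 49.8% of the other cells there.

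**Figure D4:**
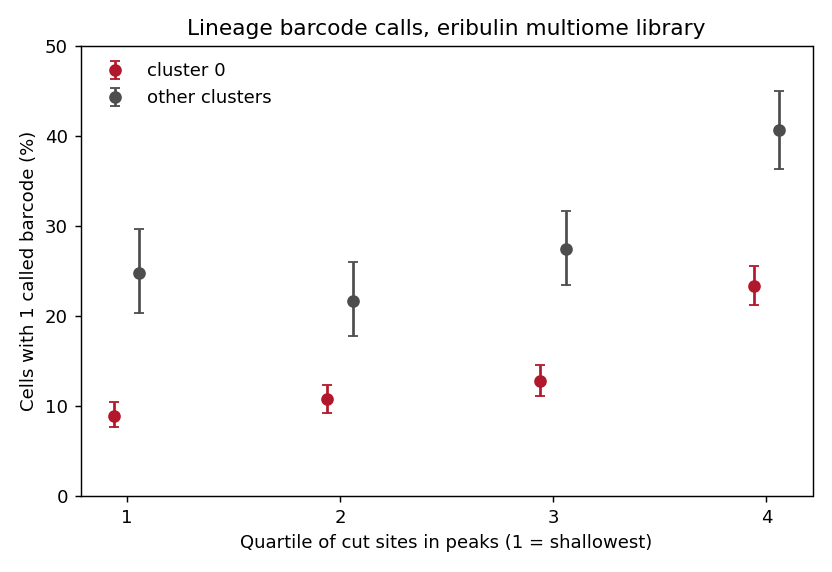
Share of eribulin multiome cells with 1 called lineage barcode (vertical axis, percent) by quartile of cut sites (horizontal axis), in cluster 0 and in all other clusters. Bars are exact 95% binomial intervals; cluster 0 runs from 8.96% to 23.3% and lies below the other clusters in each quartile.

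The called cells of cluster 0, 13.8% of its eribulin multiome cells, came from several lineages in unequal parts. The lineages of its cells without a call are not known. The 876 called cells of cluster 0 carried 21 barcodes, and the other 515 called cells carried 22, without adjustment for the unequal numbers of cells. An effective barcode number, computed as 1 divided by the sum of squared barcode shares, was 4.03 in cluster 0 and 3.93 outside it. The value outside pools clusters with unlike lineages. In cluster 12, 200 of 239 called cells carried 6-93034, and in cluster 10, 58 of 83 carried 95-33662. In cluster 11, 34 of 66 carried 39-41529, and in cluster 15, 21 of 63 carried 76-49517. The 5 most frequent barcodes had 90.3% (88.1 to 92.2) of the called cells in cluster 0 and 88.0% (84.8 to 90.6) outside. The individual barcodes took different parts inside and outside the cluster. Barcode 76-49517 made up 41.9% (38.6 to 45.2) of the called cells in cluster 0 and 13.8% (10.9 to 17.1) outside it. Barcode 55-23349 made up 13.9% (11.7 to 16.4) and 4.66% (3.01 to 6.85). In contrast, 6-93034 made up 19.7% (17.2 to 22.5) and 44.7% (40.3 to 49.1), and 39-41529 made up 3.88% and 9.13%.

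All 10 barcodes with at least 10 called cells had members in cluster 0. Lineages 76-49517 and 55-23349 had the highest shares there, 83.8% of 438 and 83.6% of 146 cells. Next came 89-6288 with 16 of 21 (76.2%, 52.8 to 91.8) and 55-98358 with 30 of 46 (65.2%, 49.8 to 78.6). Intermediate values were those of 55-37135, with 6 of 11 cells, and of 95-33662, with 95 of 176 (54.0%, 46.3 to 61.5). The lowest shares were 42.9% (38.0 to 47.9) for 6-93034, 42.0% (31.1 to 53.5) for 39-41529, 7 of 18 for 29-49561 and 4 of 12 for 55-99383. Neighbours in this order had overlapping intervals throughout, whereas the interval of 76-49517 and that of 55-23349 each lay above those of 6-93034, 95-33662 and 39-41529. Sharing the short part 55 did not go with 1 level: the 4 barcodes with it ranged from 33.3% to 83.6%.

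Lineages 76-49517 and 55-23349 lay above the other barcodes in every depth quartile, and 6-93034, 95-33662 and 39-41529 lay below them. Lineage 76-49517 had 90.4%, 85.7%, 83.8% and 79.1% of its cells in cluster 0 from the shallowest to the deepest quartile, and the called cells of all other barcodes had 48.4%, 55.5%, 50.0% and 56.4%. Lineage 6-93034 had 42.9%, 47.8%, 45.6% and 39.0%, always below the 66.8% to 73.6% of the other barcodes. Of the 988 called cells with other barcodes, 438 carried 76-49517 and 146 carried 55-23349, with 83.8% and 83.6% in cluster 0. The gaps of the lineages are thus not independent of one another. Lineage 6-93034 had 46.0% of its cells in cluster 0 where barcode names were written with hyphens and 21.6% (11.3 to 35.3; 11 of 51) where they included the sequence. For 95-33662 these shares were 60.9% and 32.6%. For 76-49517 they were 83.7% and 84.4%, and for 55-23349 85.2% and 82.4%. The sources used here do not say what the form of the name stands for.

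Lineages also differed inside cluster 0. Cells of 55-23349 were the deepest of the 5 most frequent lineages, with a median of 10986.5 cut sites (interval 9387 to 13329) in cluster 0. The medians of the other 4 lay between 4963 (4347 to 5623) for 76-49517 and 5961.5 (3033 to 9442) for 39-41529, whose interval alone overlapped that of 55-23349. A high median was found in both forms of the name, with 9980 and 11446.5, and also in the 24 cells of the lineage outside cluster 0, with 11445. In the other libraries the lineage had a median of 5364 in 30 eribulin scATAC cells and 3297 in 19 untreated multiome cells, below the library medians of 6049 and 5217. The part of depth in the place of this lineage was not tested. Along with its depth, 55-23349 had the highest median on the second UMAP axis of the 5, 4.00 against 2.90 to 3.34. The nucleosome signal of the 5 lineages in cluster 0 lay between 0.642 and 0.673 with overlapping intervals.

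Cells of 76-49517 were displaced along the first axis. Over cluster 0 as a whole this axis hardly moved with depth, but these cells lay further right at greater depth. Their median there was -3.47 (quartiles -4.13 and -2.81), and those of the other 4 frequent lineages were -4.11 to -3.99. In each of the 4 depth quartiles the lineage lay to the right of the other barcodes, from -3.65 against -4.19 in the shallowest to -3.03 against -4.02 in the deepest. The quartiles of the lineages overlapped, so this was a shift and not a separation. Among the 30 nearest called cluster 0 cells, 47.5% shared the barcode of a 76-49517 cell where complete mixing would give 41.8%, and for 55-23349 the values were 19.9% and 13.8%. For 6-93034 they were 20.6% and 19.7%, and for 95-33662 10.2% and 10.7%, near complete mixing.

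In scATAC the cells of these lineages lay mainly in clusters 1, 5 and 7, as did the library as a whole. Cluster 0 held 0.771% of all eribulin scATAC cells, and clusters 1, 5 and 7 held 68.6% (67.9 to 69.3). Lineages 76-49517 and 55-23349 together had 489 of 584 called multiome cells in cluster 0 (83.7%, 80.5 to 86.6) but 1 of 55 called scATAC cells (1.82%, 0.046 to 9.72). Clusters 1, 5 and 7 held 40 of these 55 cells (72.7%, 59.0 to 83.9). For 76-49517 alone, 0 of 25 scATAC cells lay in cluster 0, with an exact upper bound of 13.7% (3 counts of 25 would be 12.0%). Of these cells 10, 6 and 1 lay in clusters 1, 5 and 7. For 55-23349 the counts were 1 of 30 in cluster 0 and 13, 6 and 4 in those clusters. Lineage 39-41529 had 10 of 11 scATAC cells in these clusters, 95-33662 had 5 of 6 and 6-93034 had 4 of 8. Only 84 of the 16724 eribulin scATAC cells had 1 called barcode, so the lineage comparison across protocols rests on a small part of that library. Of all 84 called eribulin scATAC cells 63 (75%, 64.4 to 83.8) lay in clusters 1, 5 and 7. The intervals of the lineages and of all called cells covered the share of the whole library, and a difference of these lineages from it was not detectable at these numbers of cells. Run, protocol and culture cannot be told apart in this comparison.

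**Figure D5:**
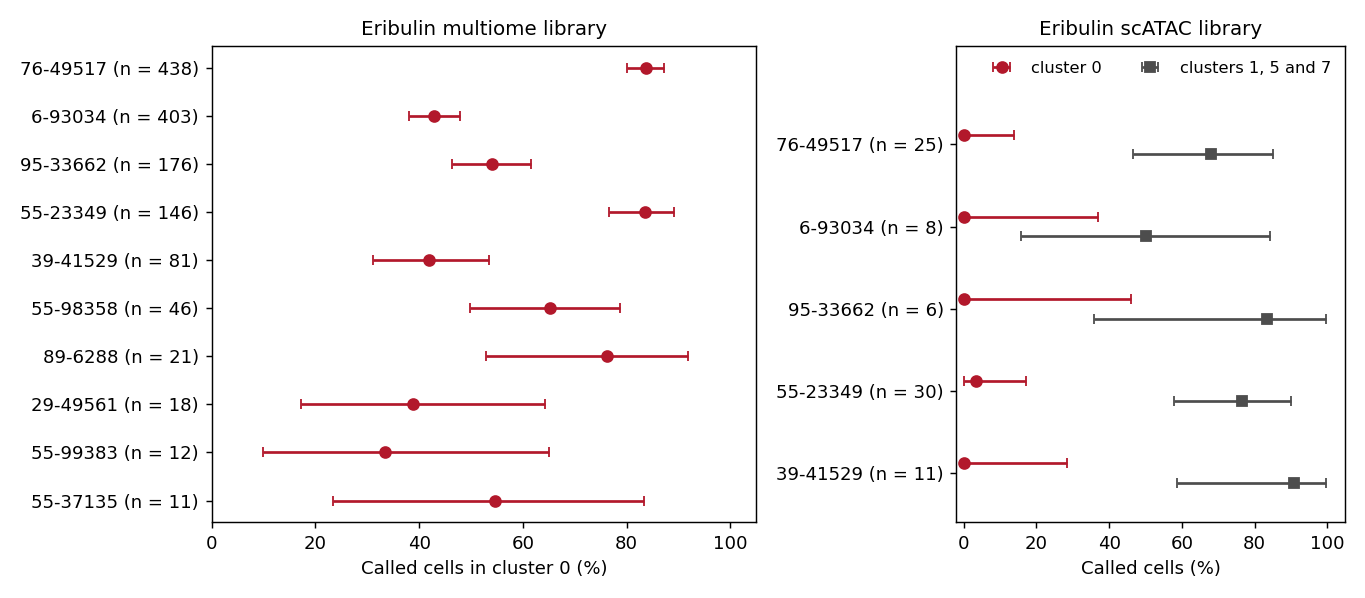
Share of called cells in cluster 0 for the 10 barcodes with at least 10 called cells in the eribulin multiome library (left), and shares in cluster 0 and in clusters 1, 5 and 7 for the 5 most frequent of them in the eribulin scATAC library (right), horizontal axes in percent. Bars are exact 95% binomial intervals and n is the number of called cells; 76-49517 and 55-23349 lie above 83% on the left and at 0% and 3.33% in cluster 0 on the right.

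In the untreated multiome library, most called cluster 0 cells carried barcodes that were not called in the eribulin multiome library. The 21 called untreated multiome cells had 21 different barcodes. Of these cells 2 (9.52%, 1.17 to 30.4) had a barcode that was also called in the eribulin multiome library, 39-41529 and 55-37135, named here after their values were seen. Among the other called untreated multiome cells the share with such a barcode was 13.0% (12.0 to 14), inside that interval. None of the 2 untreated cells of 76-49517, the 12 of 6-93034, the 6 of 95-33662 or the 19 of 55-23349 lay in cluster 0. With so few cells, a share of some percent in cluster 0 before treatment was not detectable for these lineages.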

How the data were processed

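Chromatin accessibility was measured by ATAC in 4 libraries of PB3 cells. Peak counts came from cellranger-atac 1.2.0 (run 1) and cellranger-arc 1.0.0 (run 3) on mm10, and cells were filtered and clustered with Signac 1.1.1 on components 2 to 30 of a latent semantic indexing, per the series' design text. The sources used here do not say how libraries were integrated or how barcodes were called. The deposited counts are whole numbers per cell of cut sites in peaks, peaks, gene activity and genes with activity, without normalization. Nucleosome signal and start site enrichment are each a ratio per cell, per the file headers. A UMAP coordinate is a score with no unit, as deposited.

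Cells were assigned to libraries by the library name in the cell table and the sample titles. Cluster 0 was set against the other cells of the same library by shares, medians and quartiles, also within quartiles of cut sites. Barcode shares used cells with 1 called barcode; doublet, multiplet, unmapped and negative cells were left out there and kept elsewhere. Differently written names of a barcode were merged by their part numbers. Neighbour shares used 30 neighbours. No test was made: with treatment and run as terms, 4 libraries would leave 1 residual degree of freedom, and 2 pairs allow no two-sided exact p below 0.5. A barcode is described if at least 10 eribulin multiome cells were called with it, and a cluster if a library had 50 or more cells in it. The members and these choices were made with earlier results of these data known. Values were computed in Python 3.11.15 with scipy 1.17.1, numpy 2.4.6 and pandas 2.3.3, and drawn with matplotlib 3.10.9. The interval calculations were tested on simulated data.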

Additional observations from a re-analysis of the deposited data

Results flagged for a closer look

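The nucleosome signal of cluster 0 cells, set against the other cells of their library, differed in sign between the treatments. It was higher in both eribulin libraries, by 0.0026 in multiome and 0.029 in scATAC, and lower in both untreated libraries, with a difference of medians of -0.095 in multiome and -0.055 in scATAC. Intervals of these differences were taken between opposite ends of the intervals of both medians. They had ends of opposite sign in eribulin multiome (-0.0069 to 0.0109), untreated multiome (-0.143 to 0.068) and untreated scATAC (-0.141 to 0.0061). The sign was thus not resolved in these libraries, whereas the interval in eribulin scATAC was 0.00069 to 0.065. The difference between the treatments was not tested, and the multiome value of the eribulin library changed sign under other settings.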

How the results depend on the processing

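Results were recomputed under the alternatives, of which 5 were chosen after seeing the data: leaving out cells whose cell barcode another library shares (3), keeping only cells below 3000 cut sites, and thinning the libraries to equal numbers of cells. Of 121 alternative values of 48 results, 90 kept their direction and stayed within the interval of the value over all cells (the number of described barcodes, 10, within 1.5 times), and 7 values of genes with activity, activity per cut site or single lineages moved further without a change of sign. The others are given here; the cause was not tested. Among cells with at least 3000 cut sites, cluster 0 held 76.5% of the eribulin multiome, 0.254% of the untreated multiome and 0.151% of the untreated scATAC library. Among called cells it held 63.0% of the eribulin multiome library. It held 1.19% (1 of 84, 0.030 to 6.46) of the called eribulin scATAC cells and 0% (0 of 29) of the called untreated scATAC cells. Of called eribulin multiome cells whose names include a sequence it held 58.9%. In the eribulin multiome library the difference in nucleosome signal turned from 0.0026 to -0.00053 without cluster 15 and to -0.00032 below 3000 cut sites. In eribulin scATAC it was 0.0701 below 3000 cut sites. Between the quartiles of depth it was -0.160 in untreated multiome. In that depth range the difference in start site enrichment was -0.0247 in eribulin multiome (0.014 over all cells), -0.457 in untreated multiome and 0.0417 in eribulin scATAC (-0.189 over all cells). The gap in total gene activity there was -258 in eribulin and -215 in untreated multiome, and activity per cut site in eribulin scATAC differed by -0.00434 (0.0024 over all cells, 0.029 by means) and in untreated multiome by -0.058 (-0.017 over all cells). By means in place of medians, eribulin scATAC cells of cluster 0 were higher by 2213 cut sites, 1308 peaks, 2674 in activity and 205 genes, all of which were lower by medians. With thinned libraries 74.6% of neighbours of the eribulin multiome cells lay in cluster 0. From a mean centre the eribulin scATAC cells had a median distance of 3.48 units. The gap in called cells was -10.9 percentage points in the second depth quartile, against -15.7 over all cells. No paired analysis was possible because each group has 1 library, so that no 2 replicate numbers are shared between groups. The 24 and 41 untreated cells give wide intervals.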
